A study of Mus musculus with 4 samples.

Results

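The genes *Tnfsf4*, *Tnfsf11*, *Ltb*, *Lta* and *Tnf* encode ligands of the TNF superfamily, and their mRNA levels in group 3 innate lymphoid cells (ILC3s) are described here. They were taken by gene symbol from the authors' deposited table, in which all 5 were found among 2179 listed genes. ILC3s were sorted as Lin-GFP+ cells from large intestinal lamina propria lymphocytes of *Rag1*-/- mice with a GFP reporter on day 3 after 1 µg of the agonistic antibody α-DR3 (4C12) or after PBS. Mice of both groups lacked *Rag1*, and with it mature T and B cells, and carried the reporter, whose GFP marked the ILC3s among Lin- cells. DR3 is the receptor of the cytokine TL1A and is listed as *Tnfrsf25*. Each group had 2 libraries, each from the pooled ILC3s of several mice, and the comparison addressed how activation of DR3 changed the transcriptome of ILC3s. The RNA-seq samples formed only these 2 groups, so the control column, headed wt in the table, was read as PBS.

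TNF superfamily ligands are mostly made as membrane proteins that act as trimers on receptors of the TNF receptor superfamily, and many of these receptors signal through TRAF proteins to NF-κB and MAP kinases. OX40L, the product of *Tnfsf4*, costimulates T cells through OX40. RANKL, the product of *Tnfsf11*, acts on RANK in osteoclasts, in lymph node development and in the epithelium that gives rise to M cells. Lymphotoxin β anchors lymphotoxin α at the cell surface, and the membrane heterotrimer acts on the lymphotoxin β receptor. ILC3s and the lymphoid tissue inducer cells related to them are known for lymphotoxin and RANKL in the formation of lymphoid tissue. Lymphotoxin α alone is secreted and, like TNF, binds the TNF receptors 1 and 2.

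*Ltb*, *Tnf* and *Lta* lie side by side on chromosome 17, and *Tnf*, which was lower after α-DR3, is located between the other two, which were higher. Gene identifiers are given with the version in the authors' table and were matched without it to the annotation. In the GENCODE M21 annotation of GRCm38, *Ltb* (ENSMUSG00000024399.5) spans 35194439 to 35196320 on the plus strand. *Tnf* (ENSMUSG00000024401.8) spans 35199381 to 35202007 and *Lta* (ENSMUSG00000024402.5) spans 35203165 to 35205351, both on the minus strand. The *Ltb* and *Tnf* genes are 3060 bases apart, *Tnf* and *Lta* are 1157 bases apart, and the whole cluster takes up 10913 bases. *Tnfsf11* (ENSMUSG00000022015.7) spans 78277445 to 78308043 on the minus strand of chromosome 14, and *Tnfsf4* (ENSMUSG00000026700.3) spans 161395409 to 161418410 on the plus strand of chromosome 1. The genes do not overlap each other or another protein-coding gene in this annotation. *Ltb* overlaps the microRNA gene *Mir6973a* and *Lta* the microRNA gene *Mir6974*.

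The promoters of the 3 neighbours are shown because the genes lie in 1 cluster of 10913 bases but differed in direction, and that of *Tnfsf11* because its levels were close to those of *Ltb*. The RefSeq promoter table for GRCm38.p6 matched 4 of the 5 genes, and *Tnfsf4* had no entry. The sequences run 5′ to 3′ on the strand of the gene and end at the last base before the gene, at chr17:35194257-35194438 (plus strand) for *Ltb*, chr17:35202008-35202257 (minus) for *Tnf*, chr17:35205352-35205601 (minus) for *Lta* and chr14:78308044-78308293 (minus) for *Tnfsf11*. Capitals mark matches, on either strand, to the NF-κB binding consensus (κB motif) or to the TATA box TATAAA:
Ltb: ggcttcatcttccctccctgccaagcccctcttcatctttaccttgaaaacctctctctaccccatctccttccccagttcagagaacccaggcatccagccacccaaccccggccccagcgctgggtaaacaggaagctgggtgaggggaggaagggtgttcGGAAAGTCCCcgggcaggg
Tnf: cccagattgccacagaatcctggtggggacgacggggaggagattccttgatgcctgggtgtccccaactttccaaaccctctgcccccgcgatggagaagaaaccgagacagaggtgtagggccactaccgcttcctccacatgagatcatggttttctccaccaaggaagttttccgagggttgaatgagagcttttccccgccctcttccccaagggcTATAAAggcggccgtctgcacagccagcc
Lta: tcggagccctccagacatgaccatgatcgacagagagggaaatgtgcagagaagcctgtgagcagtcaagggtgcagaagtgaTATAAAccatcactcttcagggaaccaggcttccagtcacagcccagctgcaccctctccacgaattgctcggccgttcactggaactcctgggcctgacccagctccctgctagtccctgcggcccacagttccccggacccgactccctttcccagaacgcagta
Tnfsf11: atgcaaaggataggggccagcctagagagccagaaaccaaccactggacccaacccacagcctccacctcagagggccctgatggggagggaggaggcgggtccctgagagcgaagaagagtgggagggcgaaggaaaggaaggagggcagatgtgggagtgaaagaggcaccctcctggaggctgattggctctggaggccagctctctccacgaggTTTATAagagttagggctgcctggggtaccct

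Motifs were searched in the 250 bases before the RefSeq start of each gene, and positions are counted from that start. For *Ltb* the RefSeq start is at 35194507, inside the GENCODE gene, so the sequence printed above stops short of it. The κB motif was found in the window of *Ltb*, on the opposite strand from 87 to 78 bases before the start, where it reads GGGACTTTCC, and not in those of *Tnf*, *Lta* and *Tnfsf11*. Of all 32817 promoter windows of this length, 3.9% held a κB motif. TATAAA was found 29 to 24 bases before the start of *Tnf*, 167 to 162 bases before that of *Lta* and, on the opposite strand, 32 to 27 bases before that of *Tnfsf11*, and 12.4% of all windows held it. The AP-1 motif TGANTCA was in none of the 4 windows and in 6.75% of all windows. The motifs do not overlap each other in these windows. Only exact matches to each motif within 250 bases were searched, so sites further upstream or with other letters would be missed. These matches describe the sequence only, and no binding was measured.

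After α-DR3 treatment, ILC3s had higher mean levels of 4 of the 5 ligand genes (*Tnfsf4*, *Tnfsf11*, *Ltb* and *Lta*) and a lower mean level of *Tnf*, with *Tnfsf4* 10.8-fold higher and the other 4 within 2-fold in either direction. The values are the authors' mean FPKM over the duplicate libraries of a group. FPKM is the fragment count of a gene corrected for transcript length and for the total of mapped fragments in a library, so levels can be compared between genes on this scale. The lengths behind the FPKM values are not given in the sources used here, and the length column of the table exceeds the span of the gene for *Ltb* (3482 against 1882 bases) and *Tnf* (3046 against 2627 bases). Values of single libraries, which the paper's supplement is described as giving, and the depth of the libraries were not used here. No error or test is therefore given, and no difference below was checked on replicates here. By real-time RT-PCR on purified ILC3s, the paper reported higher *Tnfsf4* and *Ltb* after α-DR3. The table lists only genes that passed the authors' own test, and the larger group mean of a listed gene was at least 1.005 FPKM. Every gene in it was therefore already selected for a difference between these groups. A gene below 1.005 FPKM in PBS could be listed only with a higher α-DR3 mean, so its direction was fixed by the listing. The ratio of group means was at least 1.5 for 37.1% of all listed genes (808 of 2179) in the direction of higher after α-DR3, and 38.4% (836) were lower by at least this ratio. By the same limit, *Tnfsf4*, *Tnfsf11*, *Ltb* and *Lta* were higher and *Tnf* was lower, so each of the 5 was past it with FPKM as deposited. When each group was divided by the FPKM summed over the listed genes, *Tnfsf11* (log2 ratio 0.36), *Ltb* (0.19) and *Lta* (0.48) stayed higher but were no longer past the limit, and of the genes that were higher only *Tnfsf4* was. Without a limit, 54.6% of all listed genes (1190) had a higher mean after α-DR3 and 989 a lower one. The median log2 ratio was 0.85 over the 5 genes and 0.39 over the listed genes with both means above 0. Of the genes past 1.5-fold, 49.1% were higher with FPKM as deposited, and 28.9% when each group was divided by the FPKM summed over the listed genes.

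**Figure D1:**
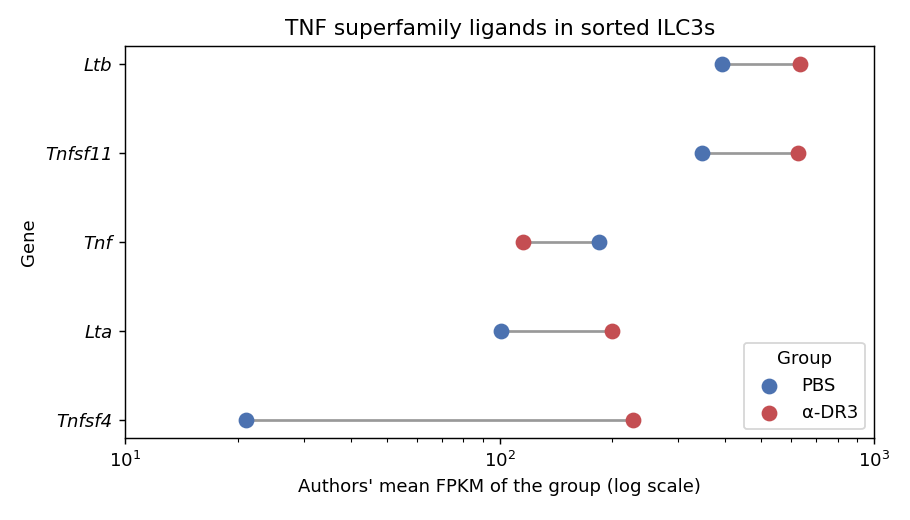
Authors' mean FPKM (log scale) of each ligand gene in ILC3s from PBS-treated (blue) and α-DR3-treated (red) mice, with 1 point per group mean and no error bars, because values of single libraries were not used. *Tnfsf4* has the widest gap, from 21.1 to 226 FPKM, and *Tnf* is the only gene whose α-DR3 point lies to the left.

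*Tnfsf4*, which encodes OX40L, had a mean of 21.1 FPKM in the PBS group and 226 FPKM in the α-DR3 group. The α-DR3 mean was 10.8 times the PBS mean, a log2 ratio of 3.43. *Tnfsf4* was the lowest of the 5 ligands in PBS, at 2.01% of their summed FPKM, and the third highest after α-DR3, at 12.6%. Of the 2169 listed genes with both means above 0, 42 had a higher ratio, and none of these 42 had a higher mean in PBS than *Tnfsf4*. Among listed genes as a whole, *Tnfsf4* went from rank 662 by mean FPKM in PBS to rank 89 after α-DR3. The gene of its receptor, *Tnfrsf4* (OX40), was listed at a low level, with means of 0.96 FPKM in PBS and 4.99 FPKM after α-DR3.

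OX40L is also made by antigen-presenting cells, and markers of other cell types were therefore read beside *Tnfsf4*. Of 17 markers of myeloid and dendritic cells 5 were listed, all higher after α-DR3 (against 54.6% of all listed genes), and their summed FPKM was 50.3 in PBS and 122 after α-DR3. Most of this sum was *Zbtb46*, a transcription factor of dendritic cells that ILC3s also express, with means of 42.3 and 71.4 FPKM. Without it the sum was 8.02 FPKM in PBS and 50.2 FPKM after α-DR3, a ratio of 6.25. *Lyz2*, the lysozyme gene of macrophages and neutrophils, had means of 4.09 and 37.9 FPKM, a log2 ratio of 3.21. *Cd68* had 3.11 and 7.17 FPKM, *Cd14* 0.64 and 3.91 FPKM, and *Adgre1*, which encodes F4/80 and is listed under its older symbol *Emr1*, 0.19 and 1.18 FPKM. At their PBS means *Cd14* and *Adgre1* could be listed only as higher, so the count of 5 rests partly on the listing. Genes of these cells outside the marker list, chosen after their values were seen, had log2 ratios both above and below the 3.43 of *Tnfsf4*, among them 4.06 for *Ccl17*, 3.32 for *Cybb*, 2.09 for the complement gene *C1qa*, 0.80 for *Apoe* and 0.65 for the cathepsin gene *Ctss*. *Ccl17*, a chemokine of dendritic cells, had 2.22 and 37.1 FPKM, *Cd86*, a costimulatory ligand, 0.17 and 1.79 FPKM, *Cybb*, a subunit of the phagocyte oxidase, 0.22 and 2.20 FPKM, and *Fscn1*, an actin-bundling protein of mature dendritic cells, 0.57 and 6.46 FPKM. None of these genes was listed at 0, but *C1qa*, *Cd86*, *Cybb* and *Fscn1*, below 1.005 FPKM in PBS, could also be listed only as higher. The other 12 markers, among them *Itgam*, *Itgax* and *Csf1r*, were not listed. In the study's flow cytometry Lin stood for CD3, B220, CD11b and CD11c. How many myeloid and dendritic cells remained among the sorted cells was not measured here, and their part in the *Tnfsf4* level was not tested. *Cd79b* was the only listed gene of 4 B cell markers, with 10.9 and 27.2 FPKM, and none of 6 T cell markers or 4 epithelial markers was listed. Of 6 stromal and endothelial markers 4 were listed, with summed means of 5.98 and 14.8 FPKM.

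*Tnfsf11*, which encodes RANKL, had a mean of 347 FPKM in PBS and 627 FPKM after α-DR3, a ratio of 1.81 and a log2 ratio of 0.85. It ranked 47 in PBS and 31 after α-DR3 among all listed genes. Counted as fragments rather than per length, it was the most abundant of the 5, with a log2 mean CPM of 9.97 over all libraries. The genes of its receptors, *Tnfrsf11a* (RANK) and *Tnfrsf11b* (the decoy receptor osteoprotegerin), were not listed. A gene that is not listed may be expressed without having passed the authors' filters.

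*Ltb* had the highest mean of the 5 ligands in both groups, with 393 FPKM in PBS and 632 FPKM after α-DR3. Its ratio of 1.61 and log2 ratio of 0.69 were the smallest among the 4 genes that were higher. Its levels were close to those of *Tnfsf11*, at 1.13 times the *Tnfsf11* mean in PBS and 1.01 times after α-DR3. Values of single libraries were not used, so the order of these neighbours was not set against their spread. In PBS the same holds for the whole order *Ltb*, *Tnfsf11*, *Tnf*, *Lta*, *Tnfsf4*, and after α-DR3 for *Ltb*, *Tnfsf11*, *Tnfsf4*, *Lta*, *Tnf*.

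*Lta* had a mean of 101 FPKM in PBS and 199 FPKM after α-DR3, a ratio of 1.97 and a log2 ratio of 0.98. The partner subunits of the membrane lymphotoxin thus differed in the same direction, and the mean of *Ltb* was 3.89 times that of *Lta* in PBS and 3.17 times after α-DR3. The receptor gene *Ltbr* was not listed.

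*Tnf* had a mean of 184 FPKM in PBS and 116 FPKM after α-DR3. The PBS mean was 1.59 times the α-DR3 mean, a log2 ratio of -0.67. *Tnf* took 17.6% of the summed FPKM of the 5 ligands in PBS and 6.43% after α-DR3, and went from place 3 to place 5 in their order. The genes of its receptors, *Tnfrsf1a* and *Tnfrsf1b*, were not listed.

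**Figure D2:**
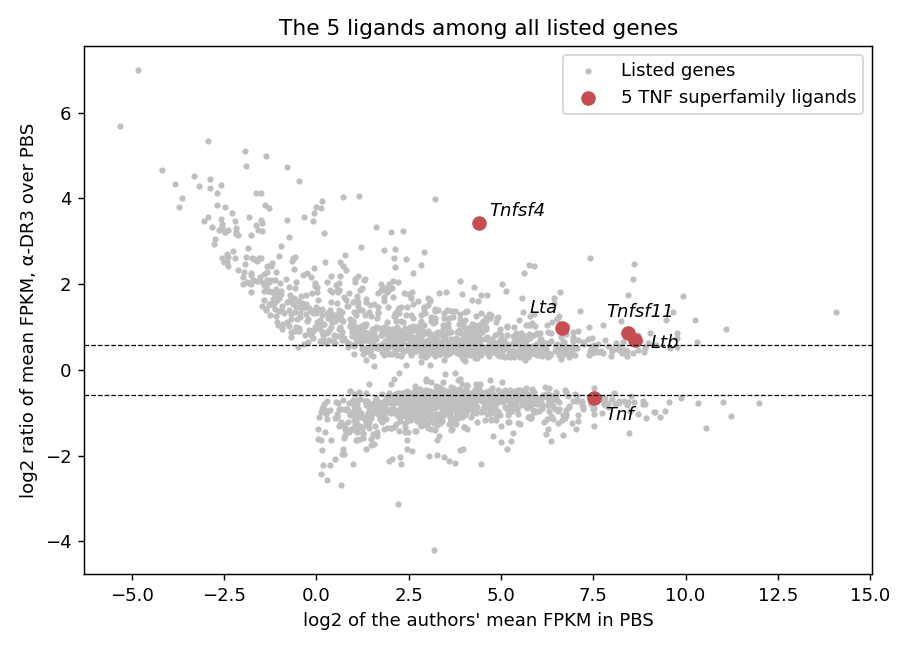
Log2 ratio of mean FPKM (α-DR3 over PBS) against the log2 mean FPKM in PBS for the 2169 listed genes with both means above 0 (grey) and the 5 ligand genes (red), with dashed lines at a ratio of 1.5 in either direction. *Tnfsf4* lies at 3.43, above all listed genes with a higher PBS mean, and the other ligand genes lie close to the dashed lines among many grey points.

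The levels of the ligands relative to each other do not depend on how the groups were scaled. *Tnf* was at 1.82 times the *Lta* mean in PBS and at 0.58 times after α-DR3, a change of -1.65 in the log2 of that quotient. Relative to *Ltb* it went from 0.47 to 0.18 times, a log2 change of -1.35. *Tnfsf4* went from 0.05 to 0.36 times the *Ltb* mean, a log2 change of 2.74, and from 0.11 to 1.96 times the *Tnf* mean, a log2 change of 4.09. In contrast, the quotients among *Tnfsf11*, *Ltb* and *Lta* changed by at most 0.29 on the log2 scale in either direction. *Tnfsf4* and *Tnf* thus stood apart from the other three in opposite directions. The summed FPKM of the 5 ligands was 1046 in PBS and 1800 after α-DR3, a ratio of 1.72 that, unlike these quotients, depends on the scaling. The FPKM summed over all listed genes was 108959 and 153670, a ratio of 1.41.

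**Figure D3:**
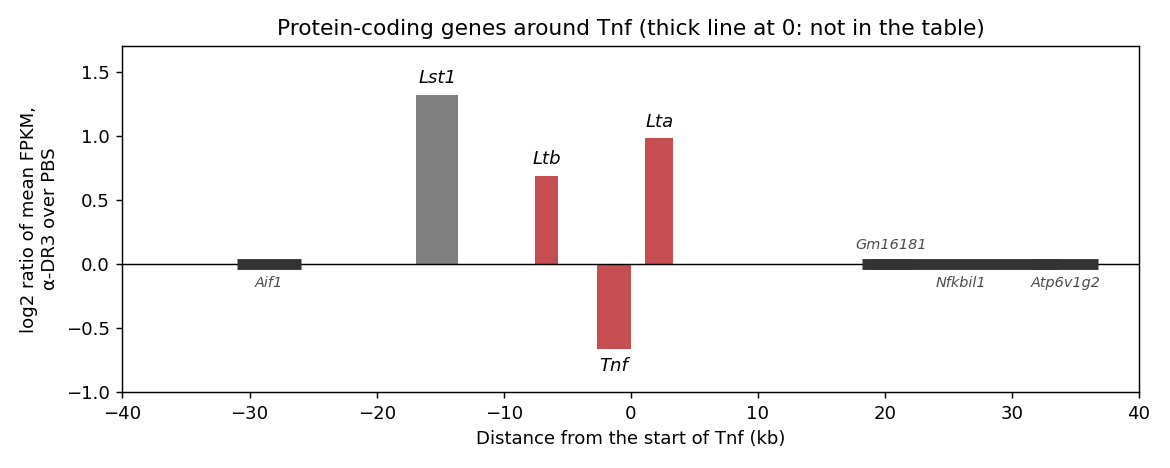
Log2 ratio of mean FPKM (α-DR3 over PBS) of protein-coding genes against their distance from the start of *Tnf* in kb, with bars as wide as the genes, red for the ligand genes and grey for *Lst1*, and thick lines at 0 for genes that are not listed. *Ltb* (0.69) and *Lta* (0.98) point up on either side of *Tnf* (-0.67).

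Within 100 kb of the start of *Tnf*, 19 protein-coding genes are annotated and 6 were listed, of which 5 were higher after α-DR3, against 54.6% of all listed genes, and only *Tnf* was lower. Besides the ligand genes these were *Lst1*, which encodes a leukocyte membrane protein (7.69 and 19.1 FPKM, log2 ratio 1.32), *Csnk2b*, which encodes the regulatory subunit of casein kinase 2 (182 and 242 FPKM, 0.41), and *Ly6g5b* (56.5 and 74.9 FPKM, 0.41). *Csnk2b* and *Ly6g5b* turned to lower when the groups were divided by the summed FPKM of the listed genes, which takes 0.50 from each log2 ratio. They stayed higher under the smaller shifts by the median ratio (-0.39) and by the summed FPKM without *Il22* (-0.25). The directions of *Tnf*, *Lta*, *Ltb* and *Lst1* did not change under any of these scalings. The other 13 genes of this stretch were not listed.

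Of the 18 TNF superfamily ligands considered, 9 were listed, 5 higher (55.6%, close to the 54.6% of all listed genes) and 4 lower after α-DR3. All 9 were past 1.5-fold with FPKM as deposited, 5 higher and 4 lower, against 37.1% and 38.4% of all listed genes in the respective direction. Most listed genes were likewise past 1.5-fold, with 808 higher and 836 lower of 2179. The 4 beside the 5 genes above were *Cd70*, *Tnfsf9*, *Fasl* and *Tnfsf10*, of which 1 was higher and 3 were lower. *Cd70*, the ligand of CD27, was close to the lower limit of the table, with 0.23 FPKM in PBS and 2.03 FPKM after α-DR3, a log2 ratio of 3.14. At this PBS mean it could be listed only as higher. *Fasl*, the death ligand of Fas, had 74.1 and 26.4 FPKM, a log2 ratio of -1.49. *Tnfsf9*, which encodes the costimulatory ligand 4-1BBL, had 109 and 52.0 FPKM, a log2 ratio of -1.06. *Tnfsf10*, which encodes the death ligand TRAIL, had 14.5 and 8.07 FPKM, a log2 ratio of -0.84. *Tnf* was thus 1 of 4 ligand genes with a lower mean. *Tnfsf15*, the gene of the DR3 ligand TL1A, was not listed.

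**Figure D4:**
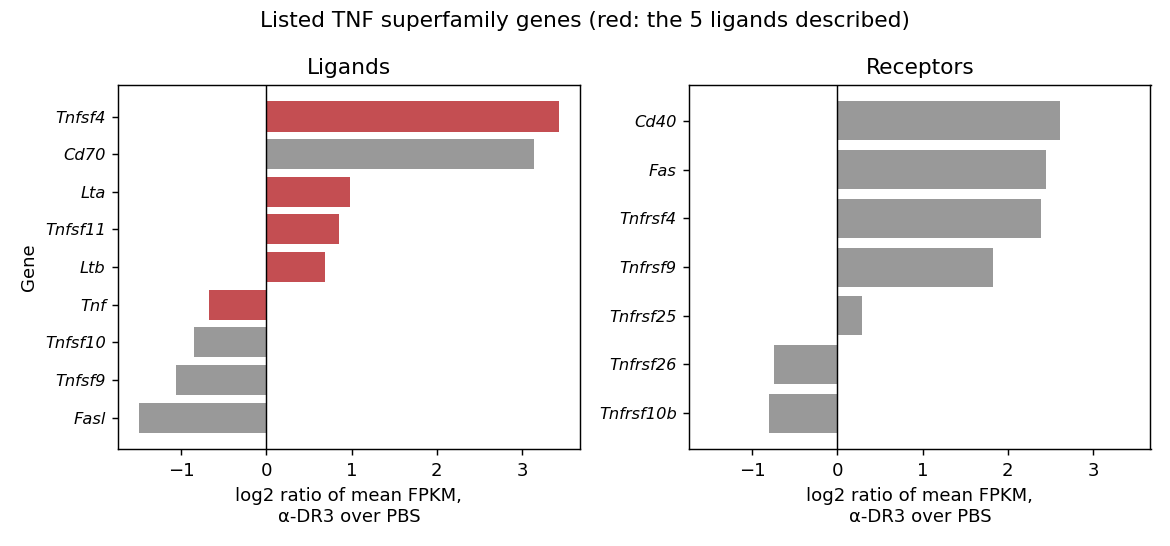
Log2 ratio of mean FPKM (α-DR3 over PBS) of the 9 listed TNF superfamily ligand genes (left) and the 7 listed receptor genes (right), with the 5 ligand genes described in red. Bars start at 0, and the ligands run from *Fasl* (-1.49) to *Tnfsf4* (3.43).

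Of 28 receptor genes 7 were listed, 5 higher (71.4%, against 54.6% of all listed genes) and 2 lower, and 4 and 2 of them were past 1.5-fold, against 37.1% and 38.4% of all listed genes. Among these *Tnfrsf4*, at 0.96 FPKM in PBS, could be listed only as higher. *Cd40* had 4.29 and 26.2 FPKM and *Fas* 7.08 and 38.5 FPKM, with log2 ratios of 2.61 and 2.44. *Tnfrsf9*, which encodes 4-1BB, had 96.7 and 343 FPKM, a log2 ratio of 1.83. For Fas and 4-1BB the ligand gene was lower and the receptor gene higher after α-DR3. For OX40L and OX40 both were higher, and for TRAIL both were lower, *Tnfrsf10b* having 6.73 and 3.87 FPKM (-0.80). *Tnfrsf26* was lower as well, with 19.2 and 11.5 FPKM (-0.74). *Tnfrsf25*, the gene of DR3, had 115 and 140 FPKM, a log2 ratio of 0.29 that fell short of the 1.5-fold limit. Its log2 ratio became -0.20 when divided by the summed FPKM of the listed genes and -0.09 by their median ratio. With the sum taken without *Il22* it was 0.04.

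Of 38 genes of TRAF and NF-κB signalling downstream of these receptors 15 were listed, 12 higher and 3 lower, with 7 and 3 past 1.5-fold and a median log2 ratio of 0.53. Over all listed genes 54.6% were higher, 37.1% and 38.4% were past 1.5-fold in either direction, and the median was 0.39. The highest log2 ratios were those of *Traf3* (12.9 and 30.6 FPKM, 1.24), which restrains noncanonical NF-κB signalling, *Tnip1* (111 and 226 FPKM, 1.02), an inhibitor of NF-κB activation, and *Relb* (67.1 and 121 FPKM, 0.86), a subunit of noncanonical NF-κB. The lowest were those of *Tab1* (6.24 and 3.69 FPKM, -0.76), a partner of the kinase TAK1, *Fadd* (9.9 and 6.2 FPKM, -0.68), an adaptor of death receptors, and *Birc3* (255 and 160.0 FPKM, -0.67), a ubiquitin ligase that binds TRAF2. *Chuk*, *Map3k7*, *Otulin* (listed as *Fam105b*) and *Nfkbie*, whose log2 ratios lay between 0.20 and 0.49, turned to lower when the groups were divided by the summed FPKM. Divided by the median ratio of the listed genes, *Otulin* (0.08) and *Nfkbie* (0.10) stayed higher, and *Chuk* (-0.18) and *Map3k7* (-0.07) did not. Divided by the summed FPKM without *Il22*, only *Chuk* (-0.05) was lower.

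The listed genes most like each ligand were found by the distance between their log2 means over the 2 group means. *Tnfsf4* had no gene within 0.5, and the nearest were *Cd81*, a tetraspanin (32.9 and 133 FPKM, distance 1.00), and *Gzma*, a granzyme (35.2 and 127 FPKM, distance 1.12). The other ligands had many near genes, with 14 within 0.5 of *Tnfsf11*, 14 of *Ltb*, 27 of *Lta* and 20 of *Tnf*. Nearest to *Tnfsf11* were *Ifitm2* (distance 0.04), an interferon-induced membrane protein gene, and *Cyb5* (0.13), the gene of a cytochrome b5. Nearest to *Ltb* were *Sec11c* (0.16), a subunit of the signal peptidase, and *Ifitm2* (0.17). *Lta* was nearest to *Myo1g* (0.10), a myosin of haematopoietic cells, and to *Ctsh* (0.16), a cathepsin. *Tnf* was nearest to *Cd48* (0.06), a receptor of the SLAM family, and to *Tsc22d3* (0.10), a glucocorticoid-induced gene.

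The sorted cells were checked against ILC3 markers, of which 7 of 13 were listed, 5 higher (71.4%, against 54.6% of all listed genes) and 2 lower after α-DR3. *Il22*, the cytokine of ILC3s, had means of 17424 and 44537 FPKM, *Il17f* 47.5 and 82.8 FPKM, the surface marker gene *Thy1* 163 and 268 FPKM, and *Ahr*, a transcription factor that maintains ILC3s, 10.7 and 16.0 FPKM. *Ccr6*, a marker of lymphoid tissue inducer-like ILC3s, had 29.5 and 68.3 FPKM, and *Ncr1*, the marker of NCR+ ILC3s, 460 and 279 FPKM. Of 6 markers of ILC1s and NK cells 4 were listed, and these went in both directions. The transcription factor gene *Tbx21* was lower, with 121 and 51.0 FPKM, while the genes of cytotoxic granule proteins were higher, with 35.2 and 127 FPKM for *Gzma*, 528 and 962 FPKM for *Gzmb* and 48.1 and 122 FPKM for *Prf1*. Of 6 ILC2 markers 3 were listed at low levels, with 0.19 and 1.82 FPKM for *Il5*, 4.38 and 10.9 FPKM for *Klrg1* and 3.40 and 1.81 FPKM for *Il1rl1*. The part of these subsets and cell types in the ligand levels was not tested. From these values of sorted bulk cells, a change in the share of a subset and a change in RNA per cell cannot be told apart. For the protein of *Tnfsf4*, the paper's flow cytometry reported more OX40L on every ILC3 subset after α-DR3.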

How the data were processed

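Poly(A) RNA from sorted ILC3s was sequenced in paired ends on HiSeq. Per the paper's methods and the labels, the authors used STAR 2.5 to map reads to GRCm38.p5, RSEM 1.2 with GENCODE M16 to quantify genes, and edgeR 3.18.1 to compare the groups. The deposited FPKM values are means the authors took over the 2 libraries of a group. Beyond the correction within FPKM, no scaling was added here except in the alternatives. The deposited log2 mean CPM is over all 4 libraries. The deposited log2 fold changes, test statistics, p-values and FDR are the authors' findings and were not used, except to check that every listed gene was under the authors' p limit. The deposited gene length was not used, as it exceeded the whole span of the gene for 126 of 2149 genes matched to GENCODE M21, *Ltb* and *Tnf* among them.

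The ratio of group means was computed without a pseudocount, with a limit of 1.5-fold as in the study. No test was run, because only the mean of each group was used, and neither values of single libraries nor their depth. Alternatives were pseudocounts of 0.1, 1 and 5 FPKM, 3 scalings, a limit of 2-fold and a filter at 5 FPKM. The genes named were the 5 ligands, listed genes of the pathway lists, marker genes (matched by gene identifier where the table keeps an older symbol), and the 2 nearest genes of each ligand. *Lst1*, *Csnk2b* and *Ly6g5b* were named for their position, and *Ccl17*, *Cd86*, *Cybb*, *Fscn1*, *C1qa*, *Apoe* and *Ctss* were chosen after their values were seen. The 5 genes and the lists were chosen with earlier results of these data known. Python 3.11.15, numpy 2.4.6 and pandas 2.3.3 were used. One marker gene and the name of the reporter allele are not reported here.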

Additional observations from a re-analysis of the deposited data

How the results depend on the processing

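The 5 ligand genes kept their direction under all 6 alternatives run for each, which ranged from 2.93 to 3.42 for *Tnfsf4*, 0.36 to 0.85 for *Tnfsf11*, 0.19 to 0.69 for *Ltb*, 0.48 to 0.98 for *Lta* and -1.16 to -0.64 for *Tnf* on the log2 scale. Division by the median ratio of the listed genes (a shift of -0.39) left *Tnfsf11* at 0.47 and *Ltb* at 0.30, below 1.5-fold, so 2 of the ligands were higher past the limit. Division by the summed FPKM (-0.50) left *Tnfsf11* at 0.36, *Ltb* at 0.19 and *Lta* at 0.48, and 1 past the limit. Division by the sum without *Il22* (-0.25), chosen after seeing the data, left *Ltb* at 0.43. The listed genes were selected for a difference, so these divisors need not describe all genes. With a limit of 2-fold, 1 ligand was higher and 0 were lower. Over the whole table, 364 genes were higher and 288 lower past 1.5-fold with a pseudocount of 5 FPKM, 446 and 257 were past 2-fold, and 517 were higher and 625 lower with a mean over 5 FPKM in either group. After division by the median ratio 460 were higher (31.8% of those past the limit), by the summed FPKM 401 (28.9%), and by the sum without *Il22* 37.0% of those past the limit were higher. No paired analysis was possible because only the deposited table was used, and it holds group means. Leaving out each library was not run for the same reason. This limit comes from the choice of values, because the paper's supplement is described as giving FPKM of the duplicate libraries. Those values were not used here, so the spread between libraries was not checked.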
